A study of Mus musculus with 8 samples.

Results

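Ion channel and neurotransmitter receptor genes were examined in mouse spermatogonia at 3 stages of differentiation. The genes were chosen by symbol alone, as the families *Kcn*, *Scn*, *Cacn*, *Clcn*, *Trpc*, *Trpm*, *Trpv*, *Gria*, *Grid*, *Grik*, *Grin*, *Grm*, *Gabr*, *Chrn*, *Ano*, *P2rx*, *P2ry*, *Hcn*, *Asic*, *Ryr* and *Itpr*. Of the 5736 genes in the table, 75 carried such a symbol, and 74 were analysed. Of these, 43 reached 1 FPKM (fragments per kilobase of gene, scaled to the reads of the library) in at least 1 of 8 libraries, 38 in at least 2 and 19 in all 8. The other 31 stayed under 1 FPKM throughout. The table does not hold every gene of these families, and statements on a family below cover only its members among the 74. Symbols of 2 of the 74 only resemble those of channels: *Grina* codes for a membrane protein of another family, and *Kcnmb4os2* is named as an opposite-strand transcript.

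Each library was made from EGFP+ cells sorted from testes of CD1:Uchl1-eGFP mice, in which the *Uchl1* promoter drives EGFP. The line began on C57BL/6 and was outcrossed to CD-1. Spermatogenesis had been synchronised. Mice took bis-(dichloroacetyl)-diamine, which blocks the synthesis of retinoic acid (RA), by mouth at 100 µg per g from postnatal day 1, and at day 11 received 10 µl of RA at 10 µg/µl under the skin. The labels give all samples this one treatment text and do not give the age of each sample. The groups were undifferentiated spermatogonia (Aal, 2 libraries), type A1 differentiating spermatogonia (A1, 3 libraries) and type A3 differentiating spermatogonia (A3, 3 libraries). By the design text, Aal is the state before RA and A1 that of the following day. Testes of at least 5 pups, or 3 adults, were pooled in each preparation, so no library stands for a single animal. The inhibitor preceded all stages, and RA, time since RA, age and stage cannot be told apart in this design.

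Voltage-gated channels open a pore for sodium, potassium or calcium when the membrane potential changes. Ligand-gated receptors do so when a transmitter such as glutamate, acetylcholine, GABA or ATP binds. A channel usually joins pore-forming subunits with accessory subunits that set its place, speed and amount in the membrane. In the testis, ion channels are best known from sperm, where calcium entry drives motility. Spermatogonia divide while joined by cytoplasmic bridges and begin to differentiate in response to RA.

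Reads recovered from the FPKM steps gave library totals from 18276164 to 27316451, of which the genes of the table held 34.0% to 34.4%. In 16 of the 74 genes at least 1 library had under 10 reads, so the lowest levels carried a large counting error. The stage labels were checked by marker lists written from general knowledge. The 12 measured genes of the undifferentiated list summed to 414 and 452 FPKM in Aal and to between 106 and 171 FPKM in the other 6 libraries. *Sox3* did not follow in A1 (36.6 and 33.2 FPKM in Aal, 41.9, 47.0 and 33.0 in A1). The 5 measured differentiating genes summed to 119 and 110 FPKM in Aal, 194 to 211 in A1 and 243 to 264 in A3. The rise from A1 to A3 lay in *Dmrtb1*, at 11.7 to 17.4 FPKM in A1 and 77.7 to 97.8 in A3. *Ccnd2* ran against the list, from 42.2 and 39.2 FPKM in Aal to between 18.1 and 18.3 in A3. Genes of the Sertoli cell, the somatic nurse cell of the tubule, were not even across libraries. The 9 measured of 19 listed summed to 57.4 and 40.5 FPKM in Aal, to 63.3, 65.0 and 447 in A1, and to 429, 328 and 232 in A3. The third A1 library thus stood with A3 on this list, and it alone was high on the 3 measured macrophage genes (10.5 against at most 1.63 FPKM elsewhere). *Fshr*, the receptor for follicle-stimulating hormone, was at 0.0702 and 0.0506 FPKM in Aal and between 0.119 and 1.39 in the other libraries. *Trf* ran against the other 8, with its highest values in Aal. The 3 measured Leydig cell genes summed to 4.69 to 10.2 FPKM in Aal and the first 2 A1 libraries and to 17.3 to 22.3 in the others. The rise in A3 lay in *Fabp3* alone, from 5.11 and 3.11 FPKM in Aal to between 17.98 and 20.98 in A3. *Cyp17a1* and *Cyp11a1* were high only in the third A1 library, at 5.20 and 1.66 FPKM. Elsewhere *Cyp17a1* lay between 0.616 and 1.34 FPKM. *Cyp11a1* was lower in A3 (0.215 to 0.421 FPKM) than in Aal (0.726 and 0.711). The 3 peritubular myoid genes summed to 1.56 to 6.53 FPKM, highest in the third A1 library. The sum of the 3 endothelial genes fell by stage. It was 7.62 and 8.86 FPKM in Aal, 4.64 to 5.78 in A1 and 2.31 to 2.61 in A3. *Cdh5* went from 4.70 and 5.61 FPKM in Aal to between 1.12 and 1.39 in A3, while *Tek* did not fall in A1. The part of endothelial RNA in the genes that fell was not tested. Of the 6 spermatid genes listed, 0 were measured.

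Most channel and receptor genes were expressed at a low level. The median over the 74 genes of the mean FPKM was 0.752, against 5.93 for all genes of the table, and 58.1% reached 1 FPKM in some library, against 86.7% of all genes. The genes with a group mean of at least 1 FPKM numbered 31 in Aal, 30 in A1 and 31 in A3. A level under 1 FPKM does not mean that a transcript was absent, and in long genes it could rest on many reads, as the 185 reads of *Scn2a* at 0.836 FPKM in the first Aal library.

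**Figure D1:**
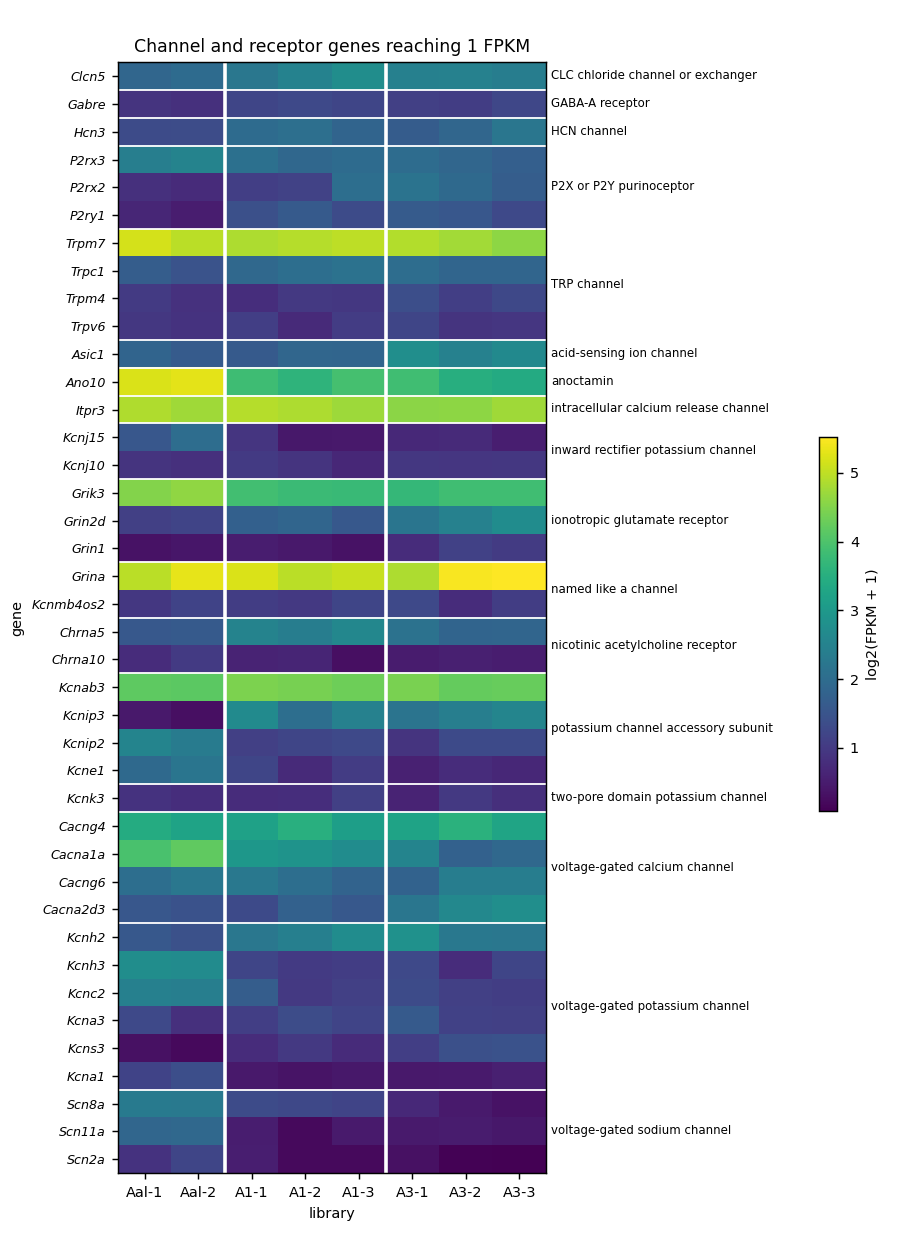
Heat map of log2(FPKM + 1) for 40 of the channel and receptor genes that reached 1 FPKM, with the 8 libraries in columns, genes in rows grouped by family, and white lines between stages and families. *Grina*, *Trpm7*, *Itpr3*, *Kcnab3* and *Cacng4* were bright in every library, whereas *Ano10*, *Cacna1a*, *Kcnh3*, *Kcnc2*, *Scn8a* and *Scn11a* were bright or intermediate in Aal and darker in A1 and A3.

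Few genes stood far above this level, and 8 reached 10 FPKM in some library. *Grina*, whose product belongs to a family of membrane proteins that guard against cell death, was the most abundant, at 30.1 and 39.1 FPKM in Aal, 36.4, 29.9 and 32.4 in A1, and 27.8, 43.1 and 45.0 in A3. *Trpm7*, a magnesium- and calcium-conducting channel fused to a kinase, held 34.9 and 30.1 FPKM in Aal, 27.8, 29.2 and 30.7 in A1, and 28.7, 26.2 and 23.2 in A3. *Itpr3*, the receptor through which inositol trisphosphate releases calcium from the endoplasmic reticulum, lay between 22.9 and 29.1 FPKM in all 8 libraries. None of these 3 genes was called in any comparison. *Kcnab3*, a cytoplasmic beta subunit of potassium channels, lay between 16.8 and 20.9 FPKM. *Cacng4*, of the gamma family that traffics AMPA receptors as well as calcium channels, lay between 7.78 and 10.7 FPKM. Both were called in no comparison, although the Aal libraries of *Kcnab3* lay just under all others. The order by mean FPKM over the 8 libraries was *Grina* (35.5), *Trpm7* (28.8), *Itpr3* (26.2), *Kcnab3* (18.8), *Ano10* (18.4), *Grik3* (15.5) and *Cacng4* (9.05), and the libraries of *Grina*, *Trpm7* and *Itpr3* overlapped.

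The comparison of A1 with Aal asks what changed as undifferentiated spermatogonia began to differentiate. Of the 74 genes, 35 could be tested, and 10 were called: 9 lower and 1 higher in A1. That is 25.7% lower and 2.86% higher. Over all 4632 genes tested, 9.15% were called, 4.97% as lower and 4.19% as higher. The median log2 fold change of the tested members was -0.06, against 0.03 for all genes, and their median absolute change was 0.63, against 0.23. Libraries of A1 and Aal did not overlap in 25 of the 35 members, and in 64.0% of all tested genes. A call needed an adjusted p (Benjamini-Hochberg) of 0.01 or less and a fold change over 1 on the log2(FPKM + 1) scale, where weakly expressed genes appear to change less than they do in FPKM. A gene was tested if it reached 1 FPKM in 2 libraries, which 9 of the 35 tested members did in one of the groups compared but not the other, among them 3 of the 10 called (*Scn11a* and *Kcnj15* in Aal, *Kcnip3* in A1). Such a gene could enter only by differing, so the counts of tested members are a description. In sorted bulk samples, fewer cells with a transcript and less of it per cell cannot be told apart.

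The comparison of A3 with Aal gives the net change over both steps, and shares its Aal libraries with the comparison of A1. Of 37 tested members, 14 were called, 9 lower (24.3%) and 5 higher (13.5%). Over all 4687 genes tested, 17.6% were called, 9.69% as lower and 7.87% as higher. Of the 37, 12 reached 1 FPKM in one of these groups alone, among them 7 of the 14 called: *Scn8a*, *Scn11a*, *Kcne1* and *Kcnj15* in Aal, and *Kcnip3*, *Kcns3* and *P2rx2* in A3. For these too, entry to the test required a difference. The 9 genes lower in A3 were those lower in A1, and *Kcnip3* was higher in both. Libraries of A3 and Aal did not overlap in 32 of the 37 members, and in 73.1% of all tested genes. For A3 and A1 this was 9 of 34 members, and 38.1% of all tested genes. Between A1 and A3, 0 of 34 tested members were called by limma, where 1.50% of 4590 genes were, 0.479% as higher and 1.02% as lower in A3. By limma's unadjusted p, 10 of the 34 lay under 0.05, a count not taken over all genes. With limma voom on the recovered reads, 5 of the 34 were called, and 199 of all 4590 genes.

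**Figure D2:**
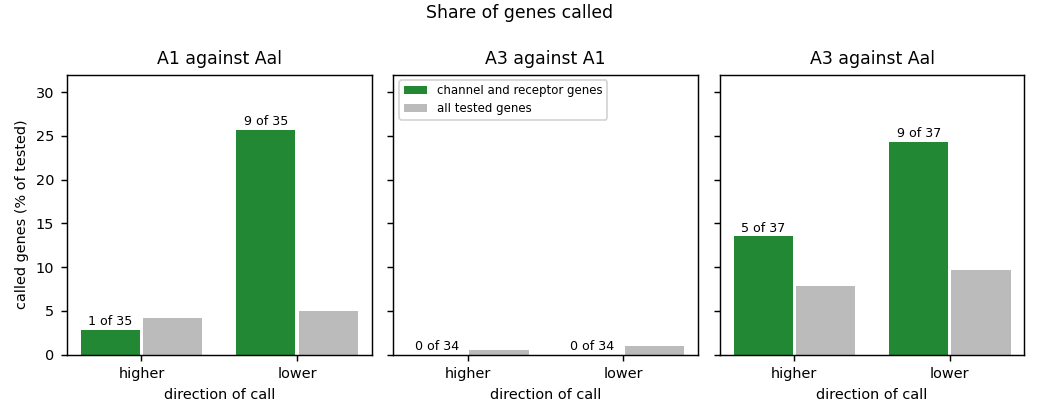
Bar plot of the share of tested genes called higher or lower in each comparison, in percent, for channel and receptor genes (green) and all tested genes (grey), with the number of members called of those tested above the green bars. The green bar for lower genes reached 25.7% in A1 and 24.3% in A3 against Aal, above the grey bars of 4.97% and 9.69%.

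Of the 5 sodium channel genes analysed, 2 could be tested, and both fell. Each codes for a large pore-forming alpha subunit, the protein that drives the rising phase of the action potential in nerve and muscle. The 5 genes summed to 7.60 and 8.14 FPKM in Aal, 2.54, 1.80 and 1.95 in A1, and 1.41, 1.04 and 0.941 in A3. *Scn8a*, a main alpha subunit of neurons, was at 4.01 and 3.86 FPKM in Aal, 1.5, 1.38 and 1.3 in A1, and 0.633, 0.391 and 0.270 in A3. The 3 stages formed a descending order with no overlap between libraries. *Scn8a* fell by 1.04 ± 0.12 (SE) on the log2 scale in A1 (adjusted p = 0.000652) and by 1.79 ± 0.15 in A3 (adjusted p = 3.67e-05) against Aal. The call in A1 did not hold without either Aal library (adjusted p = 0.01005 without the first and 0.0111 without the second), although the fold change kept its size.

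*Scn11a* (mm9 chr9:119662881-119734574, minus strand), a sodium channel of pain-sensing neurons, was at 2.65 and 2.78 FPKM in Aal, 0.425, 0.169 and 0.384 in A1, and 0.380, 0.414 and 0.339 in A3. Both Aal libraries stood far above the other 6, which overlapped across A1 and A3. It fell by 1.49 ± 0.14 in A1 (adjusted p = 0.000326) and by 1.43 ± 0.12 in A3 (adjusted p = 3.99e-05), and mean FPKM in A1 was 0.120 times that in Aal. *Scn2a* reached 1 FPKM in a single library, was not tested, and lay at 0.836 and 1.32 FPKM in Aal and at most 0.450 in the other libraries. *Scn3a* and *Scn4a* lay at or under 0.246 FPKM.

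The calcium channel genes did not move as one. *Cacna1a* (mm9 chr8:86912339-87164145, plus strand), the pore of the P/Q-type channel that triggers transmitter release at synapses, had 14.6 and 17.3 FPKM in Aal, 6.76, 6.39 and 5.65 in A1, and 4.81, 2.40 and 2.76 in A3. It stepped down at each stage without overlap. *Cacna1a* fell by 1.22 ± 0.12 in A1 (adjusted p = 0.000345) and by 2.01 ± 0.22 in A3 (adjusted p = 0.000149) against Aal, while the step from A1 to A3 of -0.79 ± 0.20 had an adjusted p of 0.0311. *Gm16183* is annotated on the opposite strand of *Cacna1a*.

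*Cacna2d3* (mm9 chr14:29718133-30535050, minus strand), an extracellular alpha2delta subunit that brings calcium channels to the membrane, went the other way. It was at 1.95 and 1.75 FPKM in Aal, 1.48, 2.40 and 2.00 in A1, and 3.66, 5.15 and 5.83 in A3. Aal and A1 overlapped, and all A3 libraries lay above both. Its rise over Aal was 1.03 ± 0.18 (adjusted p = 0.00144), close to the fold threshold, and the call was lost when 1 library was left out. The change was then 1.08 (adjusted p = 0.0122) without the first and 0.98 (adjusted p = 0.0190) without the second Aal library, 0.99 without the second and 0.91 without the third A3 library. Median-ratio scaling gave 0.99. *Lrtm1* lies within *Cacna2d3* on the opposite strand. *Cacng6* lay between 2.45 and 4.27 FPKM with all stages overlapping, and *Cacna1s*, *Cacng1* and *Cacng5* stayed under 1 FPKM.

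Among the voltage-gated potassium channel genes, 7 of 16 were tested for A1 and 8 for A3, each against Aal, with 2 lower in each, and 1 higher in A3. These channels repolarise the membrane, and each family has its own speed and threshold. *Kcnh3* (mm9 chr15:99055292-99073248, plus strand), of the ether-a-go-go family, was at 5.71 and 5.56 FPKM in Aal, 1.32, 1.00 and 1.08 in A1, and 1.41, 0.712 and 1.33 in A3. A1 and A3 overlapped well under Aal. It fell by 1.64 ± 0.13 in A1 (adjusted p = 0.000245) and by 1.64 ± 0.17 in A3 (adjusted p = 0.000122). *Kcnc2* (mm9 chr10:111708179-111903360, plus strand), of the fast-closing family used by rapidly firing neurons, was at 4.49 and 4.33 FPKM in Aal, 2.20, 0.981 and 1.17 in A1, and 1.51, 1.16 and 1.1 in A3. The first A1 library was the highest outside Aal, with no overlap with it. *Kcnc2* fell by 1.17 ± 0.21 in A1 (adjusted p = 0.00420) and by 1.27 ± 0.14 in A3 (adjusted p = 0.000135). The A1 call was lost without the first (adjusted p = 0.0425) or the second Aal library (0.0443) and without the second A1 library (0.0118).

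*Kcns3* (mm9 chr12:11097008-11157648, minus strand), a silent subunit that forms no channel alone and modifies others, rose. It was at 0.244 and 0.156 FPKM in Aal, 0.704, 0.969 and 0.680 in A1, and 1.14, 1.64 and 1.72 in A3. The stages ascended with no overlap. Its change in A3 against Aal was 1.05 ± 0.15 (adjusted p = 0.000444), and fell just below the fold threshold without the second Aal (1.00) or the third A3 library (0.99).

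Others of this class passed the p threshold but not the fold threshold. *Kcna1*, a low-threshold channel of axons, was at 1.25 and 1.63 FPKM in Aal and at 0.290 to 0.472 in the other 6 libraries, with log2 changes of -0.87 in A1 (adjusted p = 0.00187) and -0.79 in A3 (adjusted p = 0.000965). All 6 lay below both Aal libraries. *Kcnh2*, which carries the rapid repolarising current of the heart, differed in the opposite direction, from 1.98 and 1.70 FPKM in Aal to 3.69, 4.35 and 5.58 in A1 and 6.10, 3.81 and 3.71 in A3. A1 and A3 overlapped above Aal, with log2 changes of 0.95 (adjusted p = 0.00387) and 0.94 (adjusted p = 0.00378). *Kcna3* overlapped across stages between 0.789 and 2.07 FPKM, and the other 8 genes of the class stayed under 1 FPKM.

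The largest rise among the called genes and 2 of the falls were in accessory subunits of potassium channels. *Kcnip3* (mm9 chr2:127282234-127347830, minus strand) codes for a calcium-binding protein that adjusts A-type potassium channels and also binds DNA as a repressor. It was at 0.360 and 0.234 FPKM in Aal, 5.42, 3.15 and 4.55 in A1, and 3.54, 4.30 and 4.85 in A3. In reads this was 31 and 21 in Aal, 413, 307 and 297 in A1, and 239, 343 and 437 in A3. The A1 and A3 libraries overlapped and all lay far above Aal. The mean FPKM was 14.7 times higher in A1 and 14.2 times higher in A3 than in Aal, or 2.03 ± 0.20 (adjusted p = 0.000361) and 2.01 ± 0.15 (adjusted p = 2.98e-05) on the log2(FPKM + 1) scale. A small RNA gene and *Gm17601* overlap *Kcnip3* in the annotation, and reads from them cannot be set apart.

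*Kcnip2* (mm9 chr19:45866329-45890551, minus strand), a relative of *Kcnip3* that adjusts the same channels in heart and brain, moved in the opposite direction. It was at 4.77 and 4.05 FPKM in Aal, 1.17, 1.31 and 1.43 in A1, and 0.869, 1.45 and 1.46 in A3, and fell by 1.23 ± 0.13 in A1 (adjusted p = 0.000484) and by 1.27 ± 0.17 in A3 (adjusted p = 0.000343). Thus *Kcnip2* stood above *Kcnip3* in both Aal libraries and below it in the 6 others, on the per-length FPKM scale. *Kcne1* (mm9 chr16:92346246-92359713, minus strand), a single-pass subunit that slows potassium currents of heart and inner ear, was at 2.82 and 3.59 FPKM in Aal, 1.34, 0.661 and 1.08 in A1, and 0.485, 0.695 and 0.615 in A3. A1 and A3 overlapped slightly and lay under Aal. *Kcne1* fell by 1.06 ± 0.18 in A1 (adjusted p = 0.00317) and by 1.39 ± 0.14 in A3 (adjusted p = 9.67e-05), and the A1 call was lost without the first Aal library (adjusted p = 0.0189), the second (0.0431) or the second A1 library (fold change -0.93). The other 2 accessory genes, *Kcnip1* and *Kcne3*, stayed under 1 FPKM.

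The inward rectifiers analysed, of a family that holds the resting potential, were weakly expressed. *Kcnj15* (mm9 chr16:95479165-95521867, plus strand) was the one tested of 6. It was at 1.92 and 3.07 FPKM in Aal, 0.900, 0.342 and 0.360 in A1, and 0.628, 0.647 and 0.457 in A3. The Aal libraries differed between themselves, relative to their mean, more than those of the other called genes that fell, but lay above all others. *Kcnj15* fell by 1.19 ± 0.22 in A1 (adjusted p = 0.00410) and by 1.13 ± 0.17 in A3 (adjusted p = 0.000592). The A1 call was lost without the first (adjusted p = 0.0143) or the second Aal library (0.0493) or the second A1 library (0.0139), and the A3 fold change shrank to -0.89 without the second Aal library. *Kcnj10* lay between 0.597 and 1.01 FPKM. *Kcnj5*, a subunit of the channels that G proteins open, was not tested and lay at 0.571 and 0.868 FPKM in Aal and at most 0.187 elsewhere. Of the 3 two-pore leak channels analysed, *Kcnk3* lay between 0.540 and 1.15 FPKM and none was tested.

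*Ano10* (mm9 chr9:122084997-122203492, minus strand) was the most abundant called gene. It belongs to the anoctamins, which comprise calcium-activated chloride channels and lipid scramblases. It was at 36.1 and 38.7 FPKM in Aal, 13.2, 11.4 and 14.1 in A1, and 13.6, 10.2 and 9.69 in A3. A1 and A3 overlapped, with every library at less than the lowest Aal library. *Ano10* fell by 1.47 ± 0.10 in A1 (adjusted p = 0.000173) and by 1.67 ± 0.14 in A3 (adjusted p = 3.67e-05), and its mean in A3 was 0.299 times that in Aal. *Ano3* and *Ano8* stayed under 1 FPKM. *Clcn5*, an endosomal chloride and proton exchanger, went from 2.69 and 2.96 FPKM in Aal to 3.74, 4.65 and 5.69 in A1 and 4.44, 4.57 and 4.23 in A3, with a log2 change of 0.50 in A3 (adjusted p = 0.00878).

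**Figure D3:**
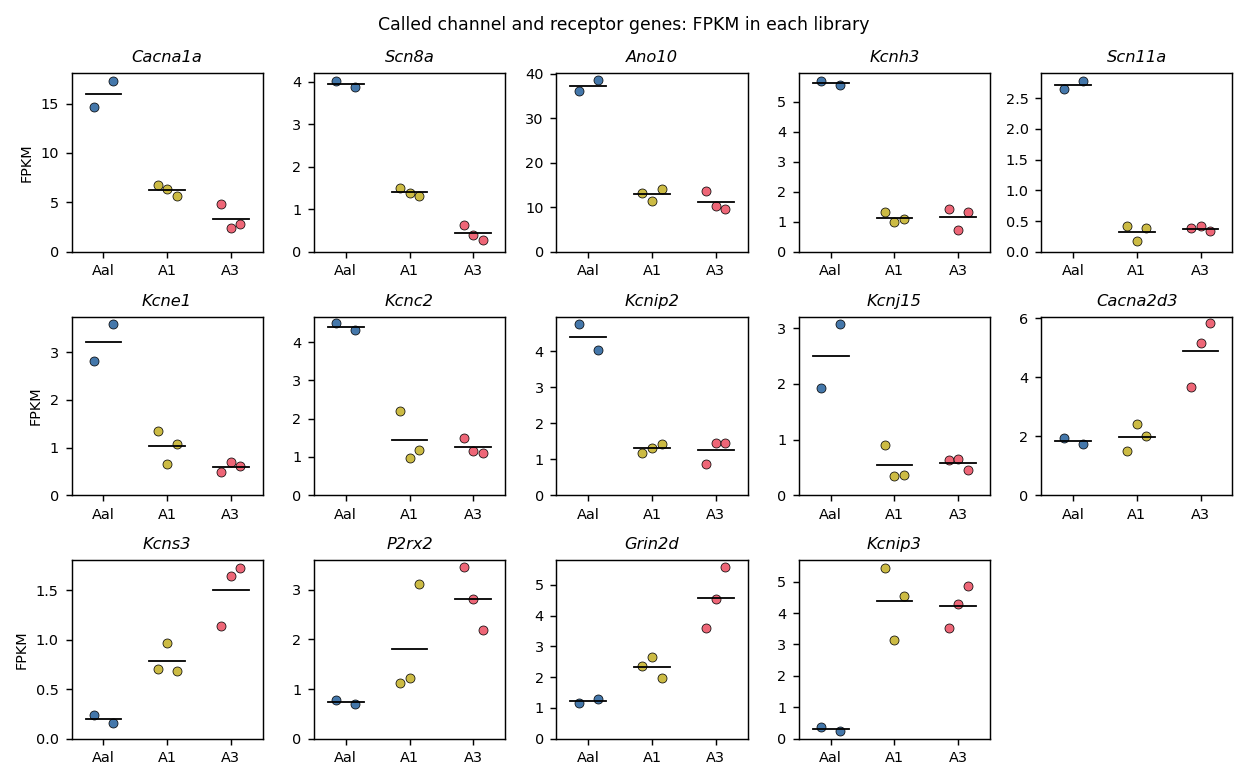
FPKM of each of the 14 called genes in every library, 1 panel per gene, with a point per library, a horizontal line at the group mean, and vertical axes that start at 0 and differ between panels. In the 9 genes that fell, both Aal points lay above all A1 and A3 points, as for *Ano10* at 36.1 and 38.7 against at most 14.1, and in *Kcnip3* both lay below. Over all tested genes, 64.0% did not overlap between A1 and Aal, and 73.1% between A3 and Aal.

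The glutamate receptor genes did not move as one, and 1 of 5 was called. *Grik3*, a kainate receptor subunit, was the most abundant one, at 21.7 and 23.5 FPKM in Aal, 13.8, 12.9 and 12.6 in A1, and 12.1, 13.5 and 13.5 in A3. Aal lay above the other stages, which overlapped, and log2 changes were -0.74 ± 0.08 in A1 (adjusted p = 0.000497) and -0.75 ± 0.09 in A3 (adjusted p = 0.000247), within the fold threshold. The NMDA receptor genes analysed had their highest levels in A3. *Grin2d* (mm9 chr7:53087253-53126298, minus strand), a subunit that gives NMDA receptors slow closing, was at 1.17 and 1.29 FPKM in Aal, 2.37, 2.64 and 1.97 in A1, and 3.60, 4.55 and 5.57 in A3. The stages ascended with no overlap. It rose by 1.31 ± 0.17 in A3 against Aal (adjusted p = 0.000330), while the steps to A1 (0.57, adjusted p = 0.0149) and from A1 to A3 (0.73, adjusted p = 0.0172) did not pass. *Grin1*, the subunit that every NMDA receptor needs, was at 0.275 and 0.319 FPKM in Aal, 0.439, 0.360 and 0.275 in A1, and 0.712, 1.18 and 1.04 in A3. Its log2 change in A3 against Aal was 0.60 ± 0.14 (adjusted p = 0.00626). *Gria3* and *Gria4*, of the AMPA type, lay at or under 0.414 FPKM.

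Receptors for ATP, acetylcholine and GABA were present at low levels. *P2rx2* (mm9 chr5:110768831-110772168, minus strand), an ATP-gated cation channel, was at 0.780 and 0.691 FPKM in Aal, 1.11, 1.22 and 3.12 in A1, and 3.45, 2.82 and 2.20 in A3. The third A1 library lay among those of A3. *P2rx2* rose by 1.13 ± 0.16 in A3 against Aal (adjusted p = 0.000560), and its change of 0.63 ± 0.29 in A1 did not pass (adjusted p = 0.123). *P2rx3*, its partner in sensory neurons, had its highest levels in Aal, from 4.30 and 4.74 FPKM in Aal to 3.25, 2.75 and 2.94 in A1 and 3.01, 2.68 and 2.31 in A3, with a log2 change of -0.59 in A3 (adjusted p = 0.00667). *P2rx3* overlaps *Ssrp1* on the opposite strand. *P2ry1*, a G protein-coupled receptor for ADP, was at 0.573 and 0.419 FPKM in Aal, 1.65, 2.08 and 1.5 in A1, and 2.11, 1.95 and 1.44 in A3, with log2 changes of 0.87 (adjusted p = 0.00284) and 0.92 (adjusted p = 0.000976).

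*Chrna5*, an accessory nicotinic receptor subunit, was highest in A1. It was at 2.00 and 2.07 FPKM in Aal, 4.69, 4.21 and 5.06 in A1, and 3.35, 2.55 and 2.60 in A3. The stages did not overlap, with log2 changes of 0.90 ± 0.13 from Aal to A1 (adjusted p = 0.00144) and -0.56 ± 0.13 from A1 to A3 (adjusted p = 0.0204). *Chrna10* lay at 0.709 and 1.01 FPKM in Aal and at most 0.568 elsewhere. *Gabre*, a GABA-A receptor subunit, lay between 0.785 and 1.42 FPKM, with the Aal libraries lowest and no call. *Hcn3*, of the channels that open on hyperpolarisation, was at 1.5 and 1.55 FPKM in Aal, 2.94, 3.18 and 2.55 in A1, and 2.15, 2.65 and 3.64 in A3, with a log2 change of 0.62 in A1 (adjusted p = 0.00841). *Pklr* overlaps it on the opposite strand. *Trpc1*, a cation channel linked to store-operated calcium entry, lay between 1.76 and 3.40 FPKM and was not called. *Trpm4* (0.739 to 1.62 FPKM) and *Trpv6* (0.663 to 1.33) came near 1 FPKM with no call, and *Trpm1* and *Trpm6* stayed under it, as did *Gabrq*, *P2ry14* and *Chrnb3*.

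A3 was set against A1 to see what changed after differentiation had begun. Of the 34 tested members, 3 passed the p threshold, within the fold threshold. Over all 4590 tested genes, 349 passed the p threshold at any fold change, a similar share. *Asic1*, a proton-gated sodium channel, was at 2.55 and 2.12 FPKM in Aal, 2.06, 2.68 and 2.61 in A1, and 5.80, 4.58 and 5.38 in A3. Aal and A1 overlapped, and A3 lay above both. Its log2 change was 0.86 ± 0.13 from A1 to A3 (adjusted p = 0.00459), against 0.05 ± 0.15 from Aal to A1 (adjusted p = 0.822). *Cacna2d3*, with the same order of libraries, changed by 0.98 ± 0.18 from A1 to A3 (adjusted p = 0.00976), and *Scn8a* by -0.75 ± 0.13 (adjusted p = 0.00826). For *Kcnip3* the log2 change from A1 to A3 was -0.02 ± 0.18, for *Kcnip2* -0.03 ± 0.15 and for *Ano10* -0.20 ± 0.14, smaller than their changes from Aal to A1. Without the first A3 library, *Cacna1a* and *Cacna2d3* were called.

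**Figure D4:**
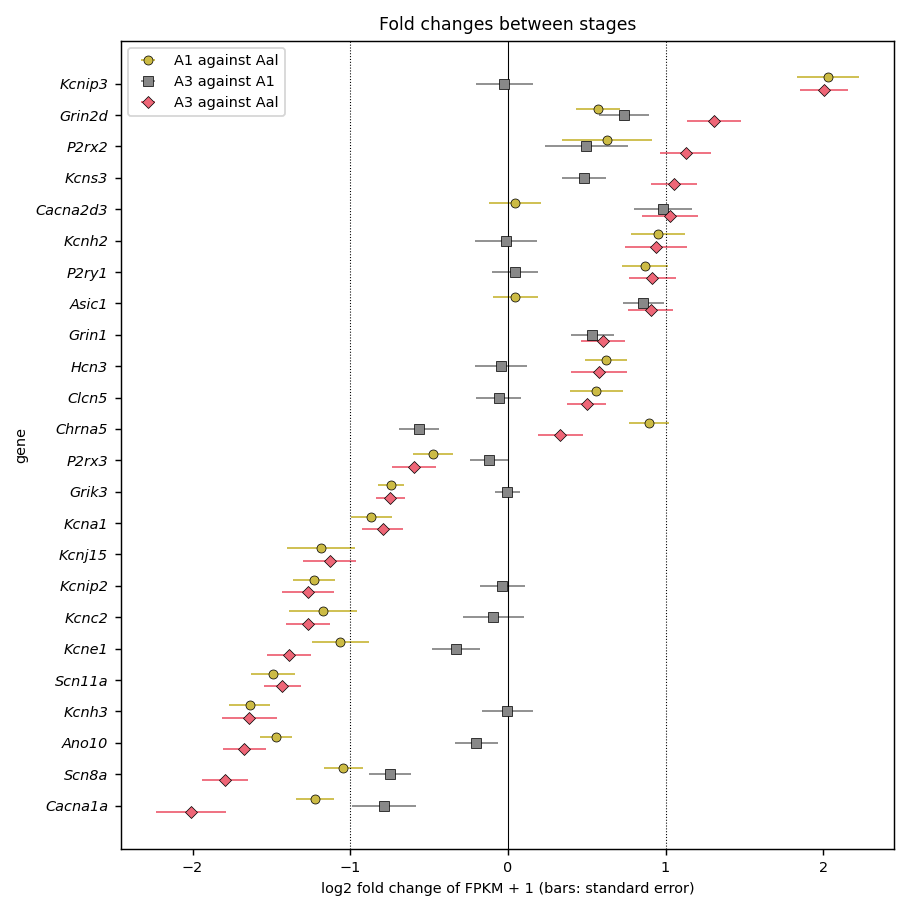
Log2 fold changes on the FPKM + 1 scale with standard errors for 24 of the genes that passed the p threshold in at least 1 comparison, in A1 against Aal (circles), A3 against A1 (squares) and A3 against Aal (diamonds), with dotted lines at the fold threshold of 1 in either direction. Circles and diamonds lay close together for *Kcnip3*, *Kcnh3* and *Scn11a*, whereas for *Cacna2d3* and *Asic1* the squares and diamonds lay together and the circles near 0.

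Promoter sequence was looked up for the called genes, since RA acts through receptors that bind DNA. RefSeq promoter entries (GRCm38.p6) were found for 50 of the 74 genes and for 10 of the 14 called, of which 6 have 1 listed start. The 250 bases upstream of that start are printed 5′ to 3′ on the gene's strand for these 6, to show how unlike the called genes are in base composition. Capitals mark AGGTCA or AGTTCA on either strand, 2 forms of the retinoic acid receptor half-site. Other forms were not searched and stay in lower case. The first 4 belong to genes that fell, at chr9:122294424-122294673 (*Ano10*, minus strand), chr19:45816064-45816313 (*Kcnip2*, minus), chr9:119825457-119825706 (*Scn11a*, minus) and chr16:95257308-95257557 (*Kcnj15*, plus). The last 2 belong to genes that rose, at chr7:45866682-45866931 (*Grin2d*, minus) and chr14:29721865-29722114 (*Cacna2d3*, minus).
Ano10: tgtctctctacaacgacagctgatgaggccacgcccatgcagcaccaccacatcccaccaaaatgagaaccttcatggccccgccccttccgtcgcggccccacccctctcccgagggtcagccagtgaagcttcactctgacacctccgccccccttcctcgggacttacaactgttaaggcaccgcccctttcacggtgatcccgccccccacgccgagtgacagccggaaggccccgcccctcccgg
Kcnip2: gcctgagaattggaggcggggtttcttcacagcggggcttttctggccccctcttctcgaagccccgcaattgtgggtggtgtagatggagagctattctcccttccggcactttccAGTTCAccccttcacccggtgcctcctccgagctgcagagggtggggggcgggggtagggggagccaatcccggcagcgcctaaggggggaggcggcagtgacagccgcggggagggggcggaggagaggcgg
Scn11a: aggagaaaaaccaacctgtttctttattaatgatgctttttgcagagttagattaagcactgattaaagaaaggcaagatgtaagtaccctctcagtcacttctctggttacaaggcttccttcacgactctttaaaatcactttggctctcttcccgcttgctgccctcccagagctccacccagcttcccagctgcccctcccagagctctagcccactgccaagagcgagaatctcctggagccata
Kcnj15: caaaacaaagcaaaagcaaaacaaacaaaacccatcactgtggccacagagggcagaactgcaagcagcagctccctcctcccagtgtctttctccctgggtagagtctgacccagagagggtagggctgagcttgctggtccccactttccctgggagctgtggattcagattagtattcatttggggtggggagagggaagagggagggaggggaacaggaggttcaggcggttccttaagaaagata
Grin2d: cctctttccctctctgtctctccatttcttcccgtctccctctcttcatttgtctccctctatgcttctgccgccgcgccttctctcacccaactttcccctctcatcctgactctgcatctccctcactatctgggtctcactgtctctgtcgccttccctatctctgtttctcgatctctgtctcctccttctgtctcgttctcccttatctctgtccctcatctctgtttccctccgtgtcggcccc
Cacna2d3: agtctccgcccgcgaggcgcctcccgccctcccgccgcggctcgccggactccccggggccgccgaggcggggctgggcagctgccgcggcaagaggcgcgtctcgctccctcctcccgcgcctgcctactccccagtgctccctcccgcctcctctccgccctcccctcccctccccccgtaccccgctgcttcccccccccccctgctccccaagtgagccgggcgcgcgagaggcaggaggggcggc
GC content ran from 48.0% in *Scn11a* to 80.0% in *Cacna2d3*, with 53.2% in *Kcnj15*, 54.4% in *Grin2d*, 65.2% in *Ano10* and 66.8% in *Kcnip2*. The median over 32851 promoter windows of the same length was 52.4%. CpG dinucleotides numbered 1 in *Kcnj15*, 3 in *Scn11a*, 9 in *Grin2d*, 15 in *Kcnip2*, 17 in *Ano10* and 30 in *Cacna2d3*, with a median of 6 over all windows. The half-site AGTTCA stood in the *Kcnip2* window, its first base at -133 from the start, and AGGTCA at -171 from 1 of 2 listed starts of *Scn8a*. AGTTCA also stood in the windows of 2 of 4 listed starts of *Kcnc2*, which share most of their bases. Over all windows 14.0% held AGGTCA and 11.8% AGTTCA, so a match in a few of these genes is a description of the letters only.

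In *P2rx2*, *Kcnk13* and *Asic4*, the third A1 library resembled A3, as it did on the uneven Sertoli list. In *P2rx2* the first 2 A1 libraries also lay above Aal and under A3. *Asic4* rested on 1 to 4 reads in Aal and the first 2 A1 libraries. *Kcnk13*, a two-pore potassium channel, was at 0.120 and 0.128 FPKM in Aal, 0.226, 0.306 and 0.774 in A1, and 0.882, 0.949 and 0.547 in A3. *Asic4*, a relative of *Asic1*, was at 0.0312 and 0.0150 FPKM in Aal, 0.0707, 0.0276 and 0.392 in A1, and 0.319, 0.169 and 0.254 in A3. In each, the third A1 library lay within the range of A3 or above it and apart from the first 2, as did 8 of the 9 Sertoli genes. The part of Sertoli cell RNA in these values was not tested. In the other genes called higher in A3, the third A1 library did not stand apart with A3, at 1.97 FPKM for *Grin2d*, 0.680 for *Kcns3* and 2.00 for *Cacna2d3*. Of the 10 genes called in A1 against Aal, all 10 were called without the third A1 library. With the mean of the Sertoli list added to the A3 fit, an alternative chosen after seeing the data, 0 of 14 calls remained, as did 0 of all 823 calls, since the list separated A3 from Aal nearly as the stage did and both cannot be told apart.

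**Figure D5:**
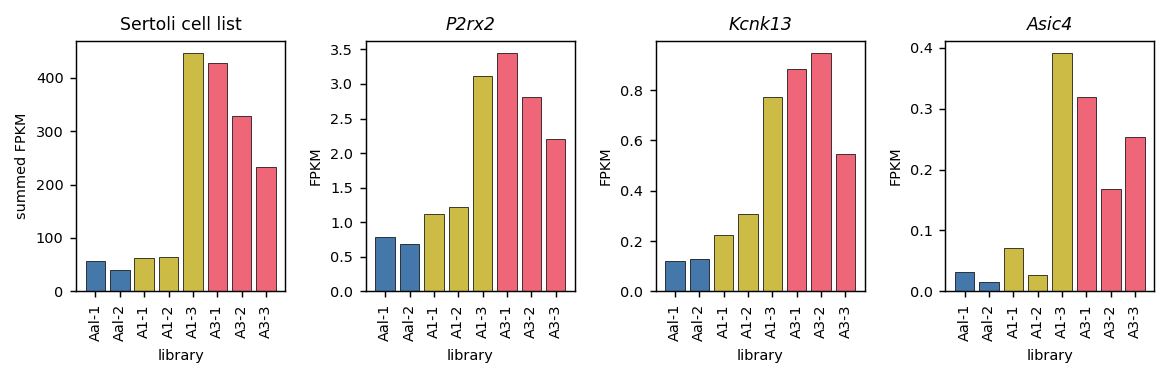
Bars of the summed FPKM of the 9 measured Sertoli cell genes and of the FPKM of *P2rx2*, *Kcnk13* and *Asic4* in each of the 8 libraries, coloured by stage, with axes from 0. The third A1 library stood with the A3 libraries in all 4 panels, at 447 for the Sertoli list and 3.12 for *P2rx2*.

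Genes that work beside channels but lie outside the symbol rule were taken from lists, whose counts stand beside the shares called over all tested genes: 4.19% higher and 4.97% lower from Aal to A1, 0.479% and 1.02% from A1 to A3, and 7.87% and 9.69% from Aal to A3. Of 8 tested calcium entry and pump genes, 0 were called by limma in any comparison, while 2, 0 and 4 had an unadjusted p under 0.05 in A1 against Aal, A3 against A1 and A3 against Aal. Limma voom on recovered reads called 1 of them, *Slc8a2*, a sodium and calcium exchanger, in A1 against Aal. Over all 4632 tested genes, voom called 731 there. Among other channels, 0 of 14 were called in A1 against Aal by limma or voom, with 4 at an unadjusted p under 0.05. The counts at this unadjusted p were not taken over all genes. *Abcc8*, the regulatory subunit of ATP-sensitive potassium channels, was the 1 of 11 called from A1 to A3, falling from between 25.1 and 29.5 FPKM to between 7.47 and 10.4 (log2 change -1.47, adjusted p = 0.000839). *Gja1*, a gap junction protein, was the 1 of 12 called in A3 against Aal, and the third A1 library, at 8.12 FPKM, again stood with A3 (6.21 to 9.52), apart from the first 2 at 1.46 and 1.71.

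Among genes for transmitter synthesis, transport and receptor anchoring, 2 of 15 tested rose and 2 fell in A1 against Aal, and 2 rose and 3 fell in A3. Over all tested genes 4.19% were called higher and 4.97% lower in A1, and 7.87% and 9.69% in A3. The list itself was not tested. *Slc17a7*, a vesicular glutamate transporter, rose from 5.68 and 4.54 FPKM to between 15.8 and 20.4 in A1 and between 17.5 and 25.8 in A3. *Shank2*, a scaffold of glutamate synapses, rose from 2.49 and 2.26 FPKM to between 7.38 and 7.95 in A1 and between 5.71 and 8.30 in A3. Its relative *Shank3* fell from 17.2 and 15.5 FPKM to between 3.76 and 5.25 in A3. *Gabarapl1*, which acts in autophagy as well as in receptor trafficking, fell from 43.6 and 42.7 FPKM to between 17.4 and 22.6 in the 6 later libraries.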

How the data were processed

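RNA from 8 sorted preparations was sequenced in single-end reads from a stranded mRNA kit. Per the submitters' processing notes, the authors trimmed reads with cutadapt 1.9, aligned them to mm9 with STAR 2.5.2b and assigned them with featureCounts, and called genes with DESeq2 on counts. The deposited table holds FPKM values. The strand setting, and how FPKM was derived from counts, are not given in the sources used here. FPKM values were whole multiples of 1 read (100% within 0.05 reads), from which reads were recovered.

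Here log2(FPKM + 1) was tested with limma 3.58.1 in R 4.3.3 (lmFit, eBayes with a mean-variance trend) for each pair of groups, on all genes that reached 1 FPKM in 2 or more of the libraries compared. P-values were two-sided and Benjamini-Hochberg adjusted over all tested genes, and genes were called where the adjusted p was 0.01 or less and the log2 fold change exceeded 1 in size. The procedure was tested on simulated data. With 2 or 3 preparations a group, p-values set each difference against the spread between preparations, which the fit drew towards a trend over all genes.

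The text names every called member, the 2 most abundant members of each class that reached 1 FPKM, and up to 5 members each way and comparison that passed the p but not the fold threshold. Others were chosen after their values were seen. The members and lists were chosen with earlier results of these data known. Some genes that met the symbol or naming rule are counted but not reported here by name, or left out. Positions are those of GENCODE M1 (69 members). Promoters are RefSeq's. Alternatives were another pseudocount, filters, scalings and thresholds, a fit on all 8 libraries, no trend, a replicate block, leaving out each library, and limma voom on recovered reads. The Sertoli-list mean as a covariate was chosen after seeing the data. Intervals for single counts are not given, since PCR copies could not be removed.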

Additional observations from a re-analysis of the deposited data

How the results depend on the processing

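In A1 against Aal, the 10 members called became 16 with a pseudocount of 0.1 and 3 with a minimum of 5 FPKM. They became 17 without a fold threshold and 16 with limma voom on recovered reads. Over all 4632 tested genes, the 424 calls became 670, 298 (of 3183 tested), 1252 and 731 in the same settings. Leaving out 1 library gave 6 to 11, with 6 (*Ano10*, *Kcnip2*, *Kcnip3*, *Scn11a*, *Kcnh3* and *Cacna1a*) without either the first or the second Aal library and 7 without the second A1 library. A fit without 1 Aal library assumes that the lone one varies like the A1 libraries. In A3 against A1, 0 became 1 with a pseudocount of 0.1 (*Asic1*), 3 without a fold threshold and 5 with voom. Over all 4590 tested genes, the 69 calls became 152, 349 and 199. When a library was left out, 0 to 2 members were called (2 without the first A3 library, where 107 of all genes were). In A3 against Aal, 14 became 4 with a minimum of 5 FPKM, where 11 members were tested, and 24 without a fold threshold. Over all genes, the 823 calls became 538 of 3230 tested and 2048 of 4687 tested. With the mean of the Sertoli list added to the fit, 0 members and 0 of all 4687 genes were called. The median log2 change of all genes then shifted by -0.13. Leaving out 1 library gave 11 to 14. With that term, *P2ry1* went to -0.041 and *Kcnh2* to -0.38 in A3 against Aal, which reversed their sign. The cause was not tested. With the replicate block the counts were 10, 0 and 14, of which 12 of the last were shared with the fit without it. Correlations of same-numbered libraries, taken on deviations from their group means, ran from -0.32 to 0.05. Within a group of 2 or 3 libraries such deviations sum to 0, so these correlations are not independent of one another. None exceeded 0.05. Whether same-numbered libraries shared a litter or day was not tested further, and the labels do not say so. The other alternatives stayed within 1.5 times the count (13 with median-ratio and 15 with quantile scaling in A3 against Aal, where 828 and 813 of all genes were called). Of 719 values for single genes, 625 kept direction and side of the threshold, 57 newly passed it and 35 no longer passed. Depth limits the genes with under 10 reads, 16 of 74.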
